A study of Mus musculus with 6 samples.

Results

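The tropomyosins, calponins, transgelin, caldesmon and smoothelin are actin-binding proteins of the thin filament. In the hearts of male mice at postnatal day 6 (P6), Tagln (transgelin, also called SM22-alpha) was higher and Smtn (smoothelin) was lower in hSRY-ON than in hSRY-OFF. The 10 genes were chosen by symbol (Tpm1, Tpm2, Tpm4, Tagln, Tagln2, Cnn1, Cnn2, Cnn3, Cald1 and Smtn), out of 18138 symbols in the heart table. Of these, 8 had a row there, with 14 probes among 25697, and 7 had a probe that could be tested. Tagln2 and Cnn3 had no row under these symbols and were not analysed here, and Cnn1 was not above background in any heart.

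All the hearts came from mice on the FVB/N background, 3 in each group, and each was measured on 1 MouseRef-8 v2.0 BeadChip array. The beads each carry 1 probe and shine more brightly the more of its transcript the sample holds. The value of a probe is its mean bead intensity, which was background corrected, quantile normalized over the arrays and taken to log2. A probe was tested where it was above background on at least 3 of the 6 arrays, and was called higher or lower where limma's p-value, adjusted over all tested probes, was under 0.05. The p-values measure the spread between these hearts. The hSRY-ON mice carried Signalox-hSRY, 1 copy of a transgene at the H11 locus on chromosome 11, in which the ubiquitous CAG promoter drives FLAG-tagged human SRY followed by EGFP once a floxed DsRed2 stop cassette is removed. Cre came from the oocytes of Ddx4-Cre mothers and acted at the single-cell stage, and the hSRY-ON pups used here did not themselves carry Ddx4-Cre. The hSRY-OFF mice are defined in the methods as carriers of the transgene without recombination, while another passage describes the controls as littermates with Cre alone or with no transgene. Whether the controls held the silent transgene is therefore uncertain. The labels pair no hearts by litter.

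In smooth muscle, actin filaments are wound by tropomyosin, and caldesmon and calponin bind along them and restrain the myosin motor until calcium, acting through calmodulin and the myosin light chain kinase, switches contraction on. Transgelin and smoothelin bind the same filaments and serve as markers of the contractile smooth muscle cell. In heart muscle, tropomyosin together with troponin is the calcium switch itself, and alpha-tropomyosin from Tpm1 is its main form. Many of these genes are known targets of serum response factor (SRF), which binds the CArG box, and of its coactivator myocardin.

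Since several of these genes are known to be controlled through CArG boxes, the promoters of the members were searched for the letters of a CArG box, of the core that SRY and SOX proteins bind (AACAAT) or of the MCAT element bound by TEAD factors (CATTCC). RefSeq promoter sequences of GRCm38.p6, from 250 bases before to 50 after the start, were searched on both strands, and none of the 3 motifs contains another. Of the 10 genes, all but Tagln had an entry, with 10 promoters in all, of which the 3 of Cnn3, Tpm2 and Tpm4 held none of the letters. A CArG box was found in 1.63% of 32851 mouse promoters, AACAAT in 10.7% and CATTCC in 14.7%. The sequences of Smtn and Cnn2 are the 250 bases before the start, and the shorter ones surround the match in Cnn1, Cald1 and Tpm1. Left out are CATTCC matches beginning 118 and 80 bases before the start of Tagln2, which was not measured here, and one on the opposite strand 153 bases before the other start of Cald1. Capitals mark the match, read 5′ to 3′ on the gene's strand.

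Smtn, chr11:3539293-3539542, minus strand, CATTCC beginning 222 bases before the start:
Smtn: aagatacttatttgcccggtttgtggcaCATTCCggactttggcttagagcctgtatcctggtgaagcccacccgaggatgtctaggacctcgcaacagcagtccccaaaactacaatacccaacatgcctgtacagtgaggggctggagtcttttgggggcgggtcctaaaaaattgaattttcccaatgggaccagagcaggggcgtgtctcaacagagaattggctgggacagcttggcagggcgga
Cnn2, chr10:79988350-79988599, plus strand, CArG box beginning 56 bases before the start:
Cnn2: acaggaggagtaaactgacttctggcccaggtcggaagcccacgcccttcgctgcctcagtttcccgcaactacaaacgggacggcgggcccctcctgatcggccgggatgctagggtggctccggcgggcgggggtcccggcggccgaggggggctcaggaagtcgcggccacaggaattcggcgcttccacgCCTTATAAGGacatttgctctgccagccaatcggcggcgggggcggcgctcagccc
Cnn1, AACAAT beginning 148 bases before the start:
Cnn1: cctaggtggaAACAATgacacagtca
Cald1, AACAAT beginning 46 bases before one of its starts:
Cald1: agtaaaaaatAACAATcagctctcag
Tpm1, CATTCC on the opposite strand, 56 bases before the start:
Tpm1: gctgtcctaaGGAATGcggtcgcccc

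Of these, Smtn fell in hSRY-ON, Cnn2, Cald1 and Tpm1 did not pass the test, and Cnn1 was not above background. The matches describe letters in the window, and binding was not measured.

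Transgelin, which cross-links actin in smooth muscle, was the member with the largest increase. The mean bead intensity of its probe was 280, 310 and 252 in the 3 hSRY-OFF hearts and 895, 447 and 519 in the 3 hSRY-ON hearts. After background correction and quantile normalization these were 6.87, 6.96 and 7.44 on the log2 scale in hSRY-OFF and 9.71, 8.31 and 8.70 in hSRY-ON. All hSRY-ON hearts lay above all hSRY-OFF hearts, and hSRY-ON replicate 1 stood well above the other two. The mean rose from 7.09 ± 0.31 to 8.90 ± 0.72 (SD, n = 3 each), a log2 fold change of 1.81 (SE 0.34, 95% confidence interval 1.01 to 2.61, limma adjusted p = 0.00766), or 3.50-fold. Without background correction the log2 fold change was 1.19, and without hSRY-ON replicate 1 it was 1.41, both still past the threshold.

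Smoothelin, a protein of contractile smooth muscle with a longer form in vessels and a shorter one in visceral muscle, went the other way on each of its 3 probes. Its brightest probe read 6922, 6451 and 5539 in hSRY-OFF and 2240, 2228 and 2062 in hSRY-ON. On the normalized log2 scale it was 12.54, 12.30 and 12.75 in hSRY-OFF and 11.14, 11.03 and 11.03 in hSRY-ON. The groups were separated by more than 1 log2 unit, with little spread within hSRY-ON. Its mean fell from 12.53 ± 0.22 to 11.06 ± 0.063 (SD, n = 3 each), a log2 fold change of -1.47 (SE 0.14, limma adjusted p = 0.000585), so it was 2.76-fold lower. The second probe read 5263, 5571 and 3724 against 1669, 1667 and 1573, and the third, which is dim, 503, 455 and 351 against 248, 226 and 262. They changed by -1.52 (SE 0.11, adjusted p = 0.000182) and -1.24 (SE 0.19, adjusted p = 0.00284) on the log2 scale, so all 3 probes of the gene fell, and the hearts of the groups did not overlap on any of them. Without background correction the dim probe changed by -0.71, still past the threshold.

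**Figure D1:**
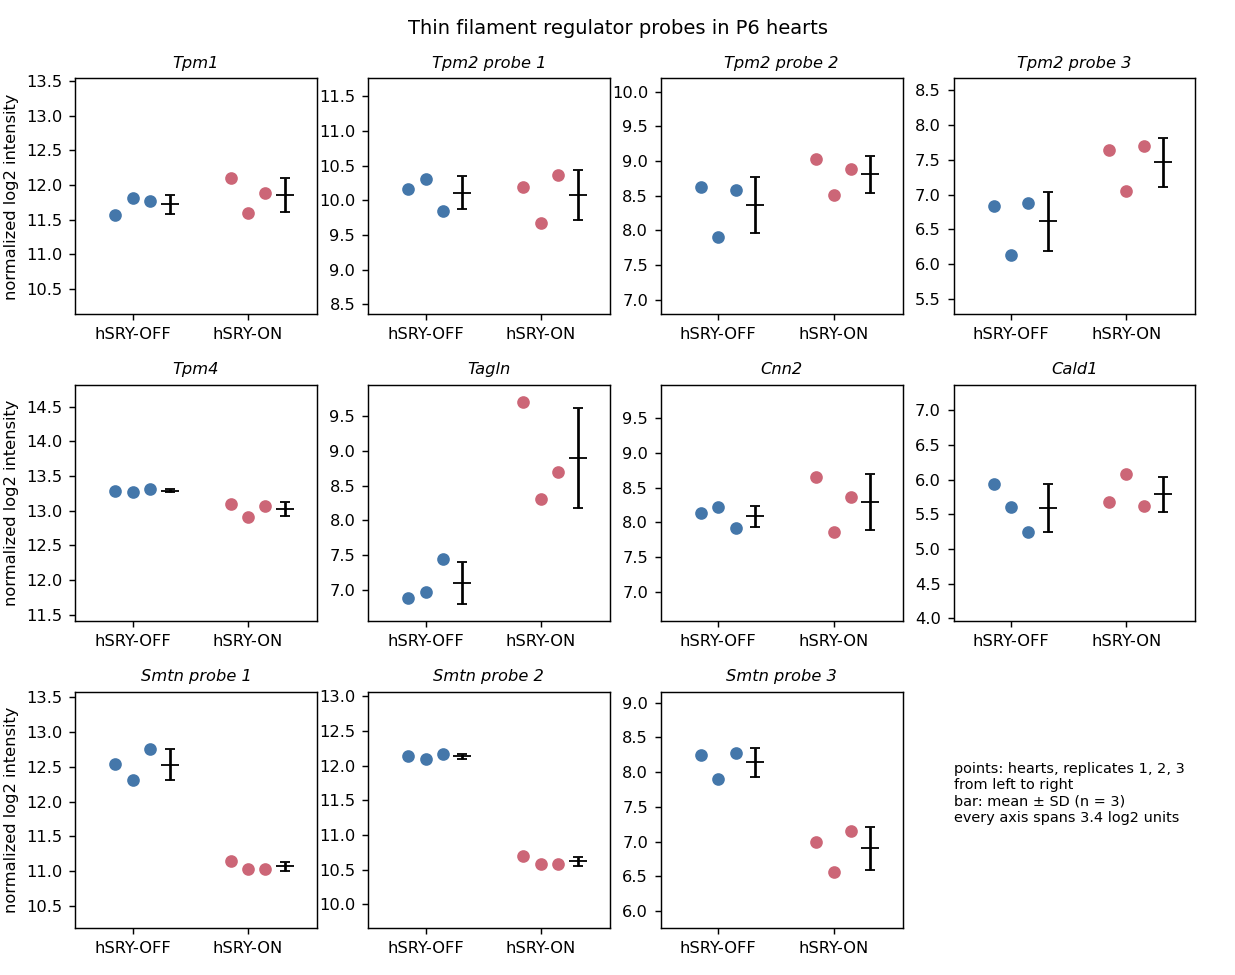
Normalized log2 intensity (y axis) of the 11 tested probes in the 6 P6 hearts, one panel per probe, with hSRY-OFF in blue and hSRY-ON in red; points are hearts, replicates 1 to 3 from left to right, and the bar is the mean ± SD (n = 3). Every panel spans 3.4 log2 units, so sizes compare across panels; Tagln lies higher and all Smtn probes lie lower in hSRY-ON, while Tpm1, Cnn2 and Cald1 overlap.

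Of the 11 tested member probes 5 passed an adjusted p of 0.05, which is 45.5%. Over all 12970 tested probes, 27.5% passed, 13.8% higher and 13.7% lower in hSRY-ON. The members' 2 increases (Tagln and 1 Tpm2 probe) and 3 decreases (the Smtn probes) come from 3 genes, and probes of 1 gene are not independent. In 6 of the 11 probes the hSRY-ON and hSRY-OFF hearts did not overlap, and 45.2% of all tested probes showed this. Taking the brightest probe of each gene, 1 of 7 genes rose, 1 fell and 5 did not pass. Over all 9660 tested genes, 1437 rose, 1341 fell and 6882 did not pass. The median log2 fold change was 0.14 over the 7 genes and 0.00 over all.

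Tropomyosins are coiled-coil proteins, of which Tpm1 encodes the alpha form of heart muscle. Its intensity was 3606, 4614 and 2795 in hSRY-OFF and 4228, 3201 and 3643 in hSRY-ON, and the hearts of the groups overlapped. The log2 fold change was 0.14 (SE 0.16, 95% confidence interval -0.23 to 0.51, adjusted p = 0.554). Tpm1 had 1 probe on the array, and which of its transcripts that probe reads was not checked.

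Tpm2, which encodes beta-tropomyosin, differed between its 3 probes. The brightest read 1467, 1716 and 807 in hSRY-OFF and 1208, 944 and 1383 in hSRY-ON, a log2 fold change of -0.03 (95% confidence interval -0.51 to 0.45, adjusted p = 0.93). The middle one gave 0.44 (SE 0.23, adjusted p = 0.192), with 607, 455 and 403 against 615, 496 and 571. The dimmest read 276, 240 and 211 against 314, 264 and 321 and rose by 0.85 on the log2 scale (SE 0.26, 95% confidence interval 0.25 to 1.44, adjusted p = 0.0435, 1.80-fold). Here the groups did not overlap, and the normalized values were 6.83, 6.13 and 6.88 against 7.64, 7.05 and 7.70. That call lies close to the threshold and was lost without normalization between arrays (0.73, adjusted p = 0.0886), without the filter on dim probes (adjusted p = 0.0769), and without hSRY-OFF replicate 1 (0.95, adjusted p = 0.067), hSRY-OFF replicate 2 (0.60, 0.103), hSRY-ON replicate 1 (0.76, 0.123) or hSRY-ON replicate 3 (0.73, 0.117). The call held in 11 of the 17 alternatives. Without background correction its log2 fold change was 0.41 (limma adjusted p = 0.0306). With the replicate number as a block it was 0.85 (limma adjusted p = 0.0106). Which transcript each probe reads was not used here, and the difference between the probes was not tested.

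Tpm4, which encodes a tropomyosin of non-muscle and smooth muscle cells, is the brightest of the member probes. It read 11503, 12325 and 8152 in hSRY-OFF and 8235, 7640 and 8209 in hSRY-ON. After normalization it was 13.28, 13.28 and 13.31 against 13.09, 12.90 and 13.07. Every hSRY-ON heart lay below every hSRY-OFF heart, and the log2 fold change was -0.27 (SE 0.11, 95% confidence interval -0.53 to -0.0025, adjusted p = 0.121), not past the threshold. It passed without background correction (adjusted p = 0.038) and with an intensity trend in the variance model (adjusted p = 0.022).

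Within the same hearts, the Tpm4 value minus the Tpm1 value ranged from 1.46 to 1.72 in hSRY-OFF hearts and from 0.999 to 1.30 in hSRY-ON hearts, a change of -0.40 on the log2 scale, with an exact permutation p of 0.1, two-sided (adjusted p = 0.2 over both pairs). The smallest p that 3 hearts against 3 allow is 0.1. The value of Tpm2 minus that of Tpm1 changed by -0.17 (exact permutation p = 0.6). Of the 6 pairs planned within the families, these are the 2 that could be formed.

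The calponins, which bind actin and calmodulin and restrain the myosin motor, were measured in part. Cnn1, the calponin of differentiated smooth muscle, was at 175, 154 and 128 in hSRY-OFF and 160, 167 and 162 in hSRY-ON, and these intensities were not above background in any heart. Cnn2, found in smooth muscle and other cells, was at 472, 524 and 302 against 501, 360 and 437. Its groups overlapped, and the log2 fold change was 0.20 (SE 0.21, 95% confidence interval -0.28 to 0.69, adjusted p = 0.51). A second Cnn2 probe was above background in none of the hSRY-OFF hearts and in 2 of the hSRY-ON hearts and was not tested.

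Caldesmon (Cald1), an inhibitor of the actomyosin ATPase, lay near the background, at 214, 212 and 153 against 179, 199 and 174. It was above background in 2 hSRY-OFF hearts and 3 hSRY-ON hearts. The groups overlapped and the log2 fold change was 0.19 (SE 0.21, 95% confidence interval -0.29 to 0.67, adjusted p = 0.527). A second Cald1 probe was above background in no heart.

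**Figure D2:**
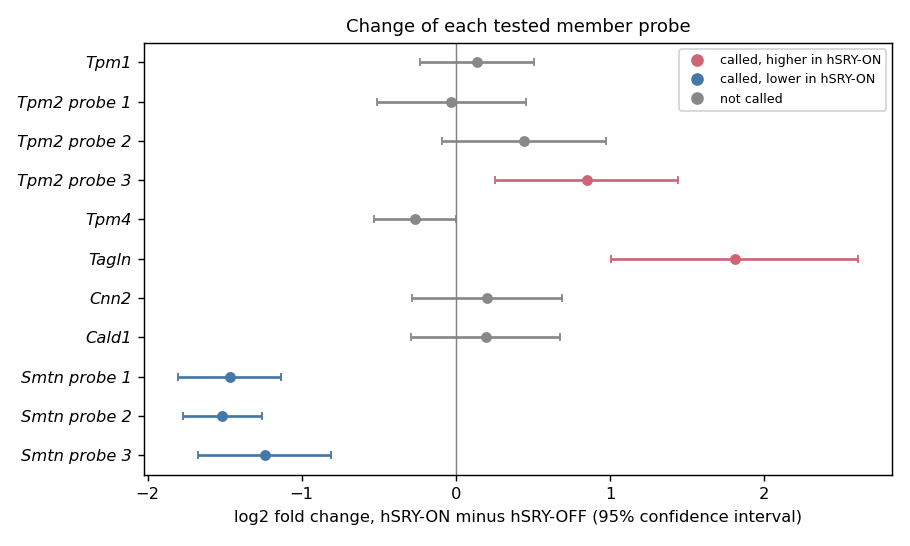
Log2 fold change, hSRY-ON minus hSRY-OFF, of each tested probe (x axis, log2 units) with its 95% confidence interval; colour gives the call at an adjusted p of 0.05. The intervals of Tpm1, Tpm2 probes 1 and 2, Cnn2 and Cald1 cover 0, that of Tpm4 ends just below it, and the 3 Smtn probes lie together near -1.47, -1.52 and -1.24.

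The highest and lowest heart of each group was counted over the tested probes, of which Smtn and Tpm2 each gave 3. Probes of 1 gene are not independent, and the same counts over all tested probes were not made. In hSRY-ON, replicate 1 had the highest value in 7 of the 11 tested probes and the lowest in 0, and replicate 2 had the lowest in 8. In hSRY-OFF, replicate 2 was lowest in 6, all of them probes of Smtn, Tpm2 and Tpm4, and replicate 3 was highest in 6. The hSRY-OFF replicate 3 array was also the dimmest, its probes averaging 631 where the other arrays averaged 723 to 939, and the part of this in the member values was not tested.

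**Figure D3:**
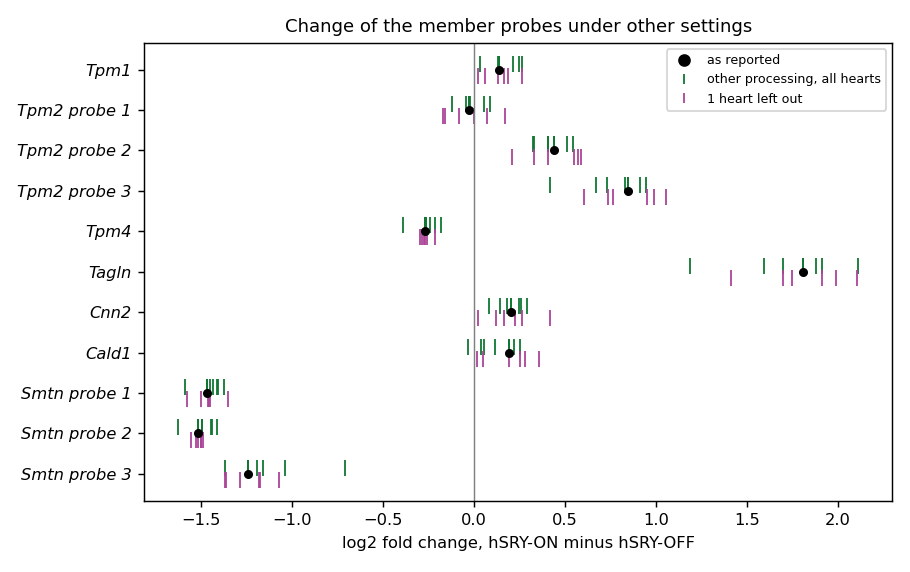
Log2 fold change, hSRY-ON minus hSRY-OFF (x axis), of each tested probe as reported (black points), under other processing with all hearts (green marks) and with 1 heart left out (purple marks). The marks for Tagln and Smtn stay on 1 side of 0, and those for Tpm2 probe 1 lie on both sides.

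Smtn lies near the integrated transgene. H11 is known as the interval between Eif4enif1 and Drg1. In the RefSeq gene order of GRCm38.p6, Smtn is the 9th protein-coding gene on the side of Drg1, counting Drg1 itself. This was looked up after the values had been seen. Of the genes between them, Drg1, Patz1, Pik3ip1, Limk2, Rnf185 and Selenom were tested and had log2 fold changes of 0.08, 0.33, 0.58, 0.54, 0.05 and -0.12, none past the threshold. The next gene after Smtn, Morc2a, was at 0.13 and also not past it. Of 13 tested genes among the 30 within 20 genes of the site, 2 fell, Smtn itself and Mtfp1, which was at -1.47. The median of the 13 was 0.11. Over all 9660 tested genes, 1341 fell. On the side of Eif4enif1 the gene order held only 10 genes, of which Sfi1 and Eif4enif1 were tested. Whether the position had a part in the fall of Smtn was not tested.

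The genes of smooth muscle contraction, a list that includes 4 of the members, differed in direction. Of 17 genes, 11 could be tested, and 3 rose and 1 fell, with a median of 0.19. The member Tagln was 1 of the 3 that rose, and the member Smtn was the 1 that fell. Over all 9660 tested genes, 1437 rose and 1341 fell. Mylk, the kinase that starts smooth muscle contraction, rose by 3.33 on the log2 scale (SE 0.16, limma adjusted p = 3.59e-05), or 10.02-fold. Its brightest probe was at 9.33, 9.20 and 9.46 on the log2 scale in hSRY-OFF and at 12.85, 12.39 and 12.73 in hSRY-ON, so every hSRY-ON heart lay above every hSRY-OFF heart. Acta2, the smooth muscle actin, rose on 4 probes, by 0.53 on the brightest (adjusted p = 0.0165), which is near the top of the intensity range, and by 1.26 to 1.48 on the others. Myh11, the smooth muscle myosin heavy chain, had a log2 fold change of -0.42 (SE 0.18, adjusted p = 0.114) and lay lower in every hSRY-ON heart, without passing the test.

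**Figure D4:**
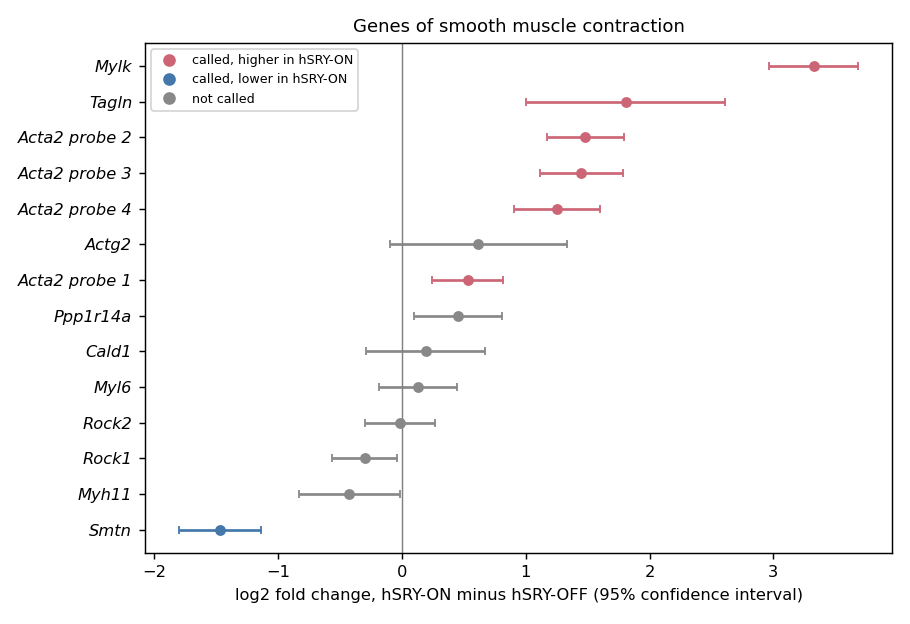
Log2 fold change, hSRY-ON minus hSRY-OFF (x axis), with its 95% confidence interval, of the 11 tested genes of smooth muscle contraction by brightest probe, with all 4 Acta2 probes. Colour gives the call at an adjusted p of 0.05; Mylk and Tagln lie highest, at 3.33 and 1.81, and Smtn lowest, at -1.47.

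The relatives of the members showed 1 call in 3 tested, a decrease, where 1341 of all 9660 tested genes fell. Smtnl2, a smoothelin-like protein, fell by 0.48 on the log2 scale (SE 0.12, adjusted p = 0.0216), and Tpm3, another tropomyosin, was at -0.12 (adjusted p = 0.689). Tagln3, a transgelin of neurons, was at 0.56 (adjusted p = 0.152). Tropomodulins cap the pointed end of tropomyosin-coated filaments, and of 4 tested genes Tmod4, a tropomodulin of skeletal muscle, fell by 1.41 (SE 0.14, adjusted p = 0.000644) while Tmod1, Tmod2 and Tmod3 were at -0.38, -0.12 and -0.25 and did not pass. Srf and Myocd encode the factor that binds the CArG box and its coactivator. On their brightest probes they had log2 fold changes of -0.15 (adjusted p = 0.528) and 0.30 (adjusted p = 0.295), neither past the threshold. The other Srf probe, which is dim, was at -0.48 (limma adjusted p = 0.0955). It lay lower in every hSRY-ON heart, without passing the test. The other Myocd probes were at 0.07 and 0.20 and did not pass. Among 24 tested actin-binding proteins outside these families 5 rose and 0 fell, where 1437 of all 9660 tested genes rose. Zyx, a focal adhesion protein, rose most, by 0.80 (limma adjusted p = 0.00691).

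Markers of several cell types of the heart also differed between the groups, and their part in the member results was not tested. Their counts stand beside 1437 genes higher and 1341 lower in hSRY-ON among all 9660 tested. In bulk tissue, fewer cells of a type and less RNA per cell cannot be told apart. The summed background-corrected intensity of 7 tested smooth muscle markers ran from 29482 to 34847 over the hSRY-OFF hearts and from 46797 to 52489 over the hSRY-ON hearts. The brightest Acta2 probe, near the top of the intensity range, held most of that sum, 84.5% to 86.2% in controls and 78.9% to 81.2% with active hSRY. Without Acta2 and Mylk, the other 5 markers summed to less in hSRY-ON (3258 to 3720) than in hSRY-OFF (4010 to 4118), so the higher sum was that of Acta2 and Mylk. Aoc3 was by far the brightest of these 5, with a mean log2 value of 11.56 in hSRY-OFF and 11.11 in hSRY-ON. Actg2, the next, was at 8.87 and 9.49. Actg2 and Ppp1r14a had log2 fold changes of 0.62 and 0.45 and Myh11 one of -0.42, none past the threshold. Of the 7, Mylk and Acta2 rose, Synpo2 and Aoc3 fell, by 0.92 and 0.46, and the defining markers Lmod1 and Kcnmb1 were not above background on enough arrays to be tested. The sum of 8 pericyte markers was 8864 to 10186 and 9383 to 11519 in the same order, with Mcam up by 0.86 and 3 markers down, Abcc9 by 0.74. Without Mcam the pericyte sum was lower in hSRY-ON, 4243 to 5396, than in hSRY-OFF, 5803 to 6981. Abcc9 was the brightest marker left in it. The markers that did not pass differed in direction, with Kcnj8 and Cspg4 at 0.66 and 0.47 and Pdgfrb and Rgs5 at -0.43 and -0.57. Of 7 tested macrophage markers 5 rose, Lyz2 most, at 1.02. Csf1r, at 0.40 (limma adjusted p = 0.408), and Emr1, at -0.21 (limma adjusted p = 0.563), did not pass. The sum of the 7 was 3690 to 4734 without and 8311 to 8816 with active hSRY.

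Of 12 cardiomyocyte markers 11 were tested, 2 rose, Myh7 most, at 2.94, and 5 fell, Pln most, at -1.47. Their sum was 175570 to 187170 in the controls and 159850 to 175180 with hSRY active, so the tissue carried the marker genes of heart in both groups. Of 15 skeletal muscle markers 6 could be tested and 4 fell, Tnni2 by 1.91, while Actn3 rose from below background in all hSRY-OFF hearts. Myh1, Myh2, Myh4 and Myod1 were not above background on enough arrays. The skeletal muscle sum was 524 to 666 and 346 to 383 in the same order. Of 8 fibroblast markers 1 rose, Tcf21 by 0.76. Of 6 endothelial markers Emcn rose by 0.53 and 2 fell, Cdh5 most, at -0.72. Of 5 red blood cell markers 1 fell, Hbb-b1 by 1.29. Of 3 epicardial and mesothelial markers none passed. Upk3b, the brightest, was at -0.04 (limma adjusted p = 0.848), Msln at 0.36 (0.346) and Upk1b at 0.85 (0.0698).

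Across the 6 hearts the gene whose pattern was most like that of Tagln, among 9659 others, was Dtnb (Pearson r = 0.998), followed by Slco3a1 and Susd2. For Smtn it was Kif1b (r = 0.999), then Mrpl38 and Zfp768. For Tpm4 these were LOC677144 (r = 0.993), LOC100038882 and Tnfrsf11b, and for Cnn2 1200009O22Rik (r = 0.974), Mrpl20 and Tmem205. With 6 hearts in 2 groups such values can be common, and 687 genes had r over 0.9 with Tagln, 911 with Smtn and 672 with Tpm4. With Cnn2, whose groups overlapped, 32 genes had r over 0.9. These correlations are only a description.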

How the data were processed

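RNA of 6 hearts of male P6 mice was measured, 3 in each group. The authors hybridized biotinylated cRNA made from total RNA to the arrays and deposited the mean bead intensity of each probe on a linear scale, not normalized, and a detection p-value against that array's negative-control beads. Between 47.2% and 51.3% of the probes were above background, and the median intensity was 156 to 201. Array number limits the precision.

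In R 4.3.3 with limma 3.58.1, intensities were background corrected (normal-exponential model, offset 16), quantile normalized and taken to log2. Probes with a detection p-value under 0.05 on at least 3 of 6 arrays were tested with lmFit and eBayes, on the 2 groups alone (two-sided), with Benjamini-Hochberg adjustment over the whole table. The main probe of a gene is its brightest. The steps were tested on simulated data. Alternatives changed the background correction, the normalization, the probe filter, the variance model, the array weights, the probe used for a gene and the hearts entered. The methods name TCC, a tool for counts, so its scaling served as an alternative only. The genes and lists were chosen with earlier results of these data known, and the rule for named genes took all members, the called gene with the largest increase and decrease of each list, every tested relative, capping protein and SRF gene, Acta2 and Myh11, and the 3 genes most like each of 4 members. Named outside it, after their values had been seen, were Aoc3, Actg2, Ppp1r14a, Kcnj8, Cspg4, Pdgfrb, Rgs5, Csf1r, Emr1, the fibroblast markers other than Tcf21 and the epicardial markers. So were the untested markers and the genes near H11.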

Additional observations from a re-analysis of the deposited data

Results flagged for a closer look

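The second Cnn2 probe, which was not tested, was above background in none of the hSRY-OFF hearts and in 2 of the hSRY-ON hearts, a signal outside the comparisons of the report. Its intensity lay close to the background in all 6 hearts, between 142 and 176.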

How the results depend on the processing

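The calls of Tagln and of all 3 Smtn probes held under every alternative, those leaving out 1 heart included, with log2 fold changes of 1.19 to 2.11 for Tagln and -1.59 to -1.35 for the brightest Smtn probe. Over all probes, 3567 passed, 1897 without normalization between arrays, and 2206 to 3669 with 1 heart left out (2206 without hSRY-OFF replicate 1 and 2255 without hSRY-ON replicate 1). The share of passing probes that were higher was 50.1%, 38.5% without normalization and 65.7% when each array was scaled to the median of its detected probes, which moved the median log2 fold change of all probes to -0.12 and 0.09. Tpm4 passed without background correction (-0.26) and with the eBayes trend (-0.27). Tpm2 turned from -0.03 to 0.85 on its dimmest probe. Between 4 and 6 member probes were called under the alternatives.

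Over all tested probes, deviations from the group means of same-numbered hearts had correlations of -0.025, 0.0375 and -0.0655. Those of differently numbered hearts ran from -0.063 to 0.0931. With 3 hearts in each group such values cannot exclude a pairing by number. With the replicate block, 2842 probes passed, and Tagln was at 1.81 and Smtn at -1.47. The pair differences were not run with array weights, with the trend or with the block. The Cald1 probe could not be tested when all arrays, or a detection p-value under 0.01, were required. Signal over background limits the dim probes, such as that of Cald1 and the dimmest of Tpm2.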
